A study of Bos taurus with 8 samples.

Results

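The genes described here are 9 maternal-effect genes of the oocyte, chosen by name: the NLRP family members NLRP2, NLRP5 and NLRP9, the subcortical maternal complex genes OOEP, TLE6 and KHDC3L, the related gene PADI6, and ZAR1 and NPM2. Every array probe whose platform annotation carried one of these symbols was taken. Of the 9 genes, 7 had a probe, each with 1 of the 43794 probes on the array, and all 7 were among the 31559 probes that passed the filter on dim signals and entered the test. No probe was annotated to KHDC3L or NPM2, so these genes were not analysed here.

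Maternal-effect genes act in the embryo through RNA and protein that the oocyte stored before fertilization. In mouse, NLRP5 (also called MATER), OOEP (FLOPED), TLE6 and the mouse counterpart of KHDC3L (FILIA) assemble into the subcortical maternal complex beneath the membrane of the oocyte and early embryo, and embryos that lack its core members stop in the first cleavages. PADI6, a member of the peptidylarginine deiminase family, is needed in mouse for the cytoplasmic lattices of the oocyte, ZAR1 binds and stores maternal messenger RNA, and NPM2 is a histone chaperone that acts on chromatin after fertilization.

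Embryos at the 2-cell stage were produced in vitro from slaughterhouse ovaries of Holstein cows, with oocytes matured in their cumulus and fertilized with a mixture of frozen semen from several bulls. Group 1 was collected at 29.5 hours post-fertilization (hpf) and is called fast in the labels. Group 2 was collected at 46 hpf and is called slow, so time of collection and speed of cleavage cannot be told apart. RNA of each group, amplified in a pair of T7 rounds, was set against the other group on 8 two-colour arrays, in 4 labelled replicates with dyes swapped, and the labels used here do not state how many embryos made up a sample. The series calls the replicates biological without saying how they were set up. P-values from replicate averages therefore measure only the spread between replicates as numbered. Fits on single arrays, with a block or in 1 dye orientation, also rest on the spread between arrays. All ratios are log2 of 29.5 hpf over 46 hpf, and a level is a normalized log2 intensity that can be compared between groups but not between probes.

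The numbering of the arrays bears on every result below. Across 31013 probes, which are not independent replicates, the dye-swapped arrays numbered 3 correlated at 0.62 with each other and those numbered 4 at 0.72. Those numbered 1 correlated at 0.04 and those numbered 2 at 0.05, whereas the crossed combinations of number 1 and number 2 gave 0.67 and 0.53. Exchanging these numbers leaves the mean of a probe unchanged and changes its spread, so intervals are given for the labelled and for the exchanged numbering, the latter chosen with these correlations known. As a check of the sample type, 11 of 13 oocyte markers, among them ZP3, GDF9 and H1-8, were above background in all 16 channels. This held for 2 (STAR and HAS2) of 15 cumulus and granulosa cell markers and 0 of 10 sperm markers. It held for 6905 testable probes of 43794 on the array, and on 2 arrays 17.02% and 18.85% of probes passed in Cy5. PTGS2, INHBA, FSHR, GREM1 and VCAN of the cumulus list and the sperm marker SMCP were above background in 14 channels. The counts therefore do not show that cumulus or sperm transcripts were absent. Each of the 7 member probes was above background in all 16 channels, by 1.21 times the negative control limit at the least (PADI6) and 229.6 times at the most (NLRP9). All lay in the brighter part of the probes that passed the filter on dim signals. Their mean intensity was between the 81.1st percentile of those probes for PADI6 and the 98.7th for NLRP9.

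NLRP2, with more signal at 29.5 hpf, was the one member past the threshold with the labelled numbers, and it was not past it with the numbers exchanged. As labelled, 1 of 7 member probes (14.3%) was called by limma at an adjusted p under 0.05, against 1.23% of all tested probes (0.672% higher and 0.558% lower at 29.5 hpf). Exchanged, 0 of 7 was called by limma, against 0.0127% of all tested probes. At an unadjusted p under 0.05 limma gave 2 members as labelled, NLRP2 and PADI6, beside 16.9% of all probes, and 1 exchanged, NLRP2, beside 12.8%. A single sign in all 4 labelled replicates was found for these same 2 members and for 26.0% of tested probes. The median log2 ratio of the 7 members was 0.05, beside -0.01 over all tested probes, and their ratios ran from -0.52 for PADI6 to 0.61 for NLRP2. In these bulk samples fewer cells carrying a transcript and less of it per cell cannot be told apart.

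**Figure D1:**
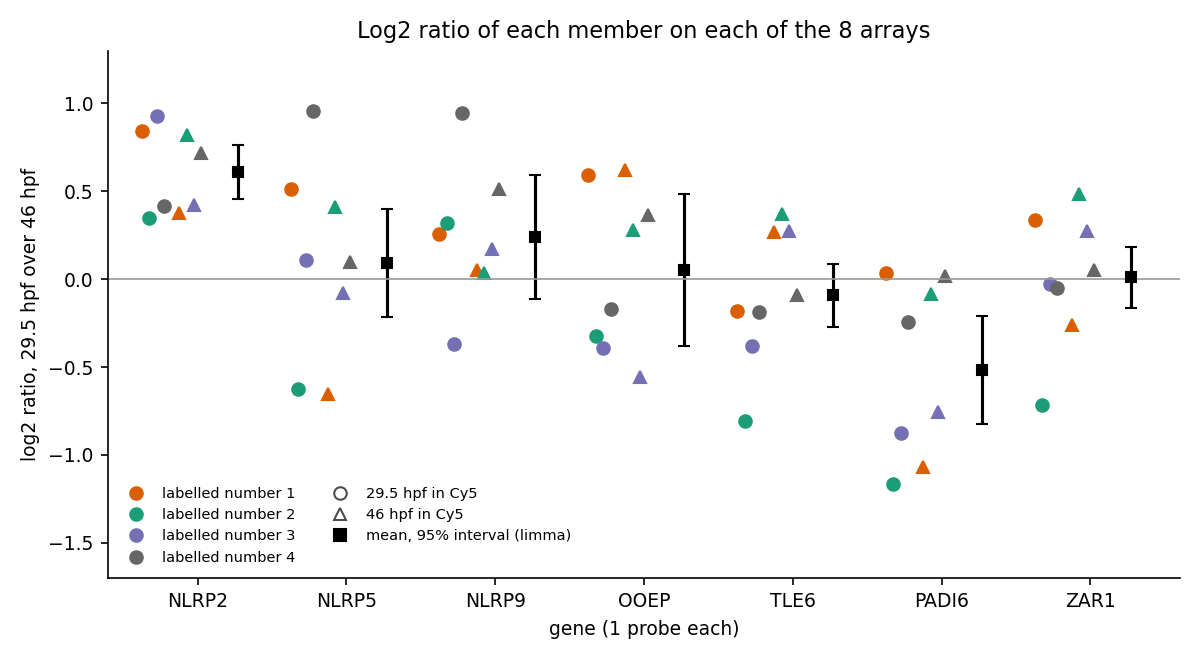
Log2 ratio of 29.5 hpf over 46 hpf for the 7 member probes on each of the 8 arrays, with the labelled number as colour and the dye orientation as shape. Black squares and bars give the mean and 95% limma interval with the labelled numbers. All 8 NLRP2 points lie above 0, between 0.35 and 0.93, and 6 of the 8 PADI6 points lie below 0.

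NLRP2 encodes an NLRP protein of the oocyte whose loss in the mother impairs early mouse embryos. Its level at 29.5 hpf was 11.66, 11.63, 11.61 and 10.99 in labelled replicates 1 to 4, and at 46 hpf it was 11.05, 11.04, 10.93 and 10.42 in the same order. Replicate 4 was lower than the others in both groups, so the 2 ranges met between 10.99 and 11.05, while within every replicate the 29.5 hpf level was the higher one. The log2 ratios were 0.61, 0.58, 0.68 and 0.57, a mean of 0.61 ± 0.05 (SD, n = 4), or 1.53-fold (95% interval 1.37 to 1.70; limma adjusted p = 0.0329). On single arrays the NLRP2 ratio ran from 0.35 to 0.93 with a median of 0.57. A single sign on all 8 arrays was found for 7.42% of tested probes and for 1 of the 7 members, NLRP2.

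The small SD of NLRP2 held for the labelled numbers only. The dye-swapped arrays numbered 1 gave NLRP2 at 0.84 and 0.38, and those numbered 2 gave 0.35 and 0.82. Exchanged, the pairs were 0.84 with 0.82 and 0.35 with 0.38, so the arrays of a pair differed by 0.024 and 0.028 in place of 0.47 and 0.47. The SD over replicates then rose from 0.05 to 0.20, the interval widened to 1.29-fold to 1.81-fold, and the call was lost (limma adjusted p = 0.122). A fit with the labelled number as a block over the 8 arrays used numbers that the correlations do not bear out for 1 and 2. The correlation between arrays of a block was taken as 0.14 over all probes, so the 8 arrays entered as nearly independent values. In that fit the call was kept (limma adjusted p = 0.00693), beside 5.19% of all tested probes called. Without background correction it was also kept (limma adjusted p = 0.0253, beside 2.07% called), as without any filter (limma adjusted p = 0.0365, beside 0.678% called), and with the authors' deposited values it was lost (log2 ratio 0.67; limma adjusted p = 0.148, beside 0.038% called). Median centring in place of loess lowered the NLRP2 ratio to 0.30 and ended the call (limma adjusted p = 0.261), while the median shift was -0.11 over all tested probes and -0.31 over the brightest 20% of them. Scaling between arrays gave 0.71, and a trended robust variance left it at 0.61, both without the call (limma adjusted p = 0.116 and 0.242). The call was also lost when any 1 replicate was left out (limma adjusted p from 0.0835 without replicate 4 to 0.190 without replicate 1), with a log2 ratio between 0.59 and 0.62. In those fits, as with median centring, scaling and the robust variance, 0% of all tested probes were called. In the pairs whose numbers the correlations bear out, replicates 3 and 4, NLRP2 was at 0.62 (limma adjusted p = 0.308, beside 0% called). In replicates 1 and 2 alone, whose numbers the correlations do not bear out, it was at 0.60 (limma adjusted p = 0.0226, beside 6.07% called). The dye orientations gave 0.63 ± 0.29 with 29.5 hpf in Cy5 and 0.58 ± 0.22 with 46 hpf in Cy5 (SD over arrays, n = 4 each). The arrays whose titles open with 140, 141 and 142 gave 0.52, 0.67 and 0.65. All arrays of 141 had 29.5 hpf in Cy5 and all of 142 had 46 hpf in Cy5. Between 141 and 142, title number and dye orientation cannot be told apart.

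**Figure D2:**
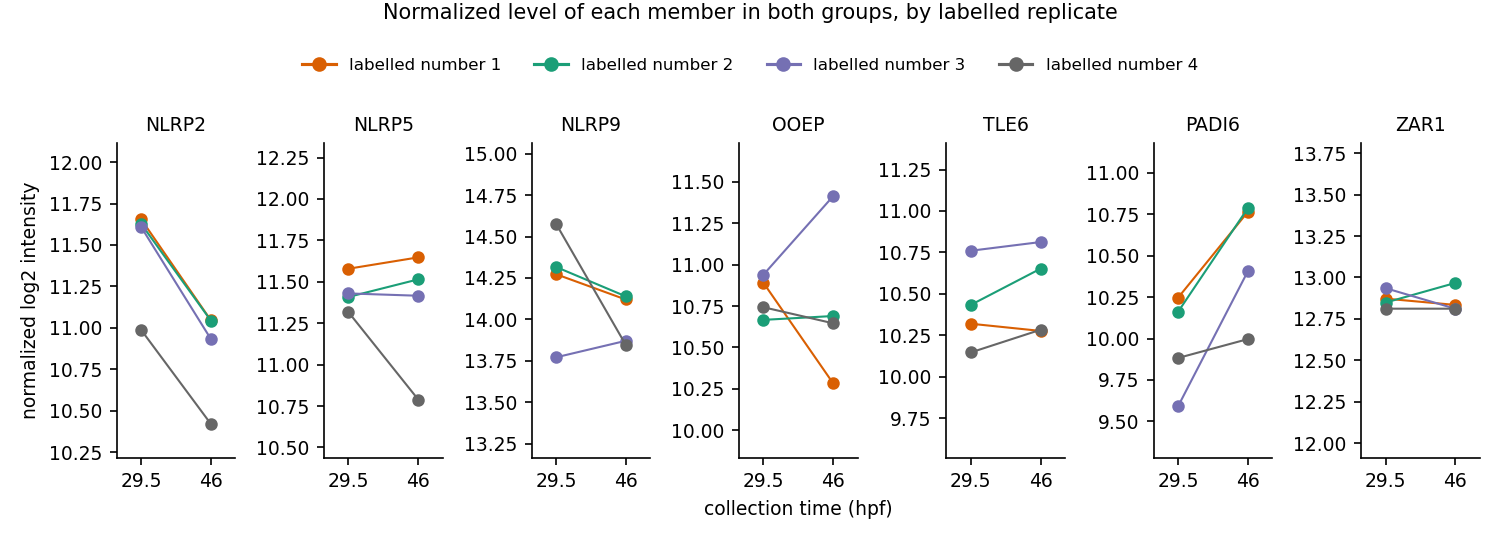
Normalized log2 intensity of each member at 29.5 and 46 hpf, with a line for each of the 4 labelled replicates (mean of its dye-swapped arrays). Every panel spans the same log2 range, and levels are not comparable between panels. From 29.5 to 46 hpf the 4 NLRP2 lines fall by 0.57 to 0.68 and the 4 PADI6 lines rise by 0.11 to 0.81, while each other member has lines that go both ways.

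NLRP5, the founding member of the subcortical maternal complex, did not differ detectably. Its labelled replicates had log2 ratios of -0.07, -0.11, 0.01 and 0.53, a mean of 0.09 ± 0.29 (SD, n = 4; limma adjusted p = 0.781). With the labelled numbers the positive mean came from replicate 4, and without it the value was -0.054. Exchanged, NLRP5 was at 0.46 and -0.64 in replicates 1 and 2. Its single arrays spread from -0.65 to 0.95, and the 95% interval was 0.86-fold to 1.32-fold with the labelled numbers and 0.74-fold to 1.54-fold with the numbers exchanged. The NLRP5 level with the labelled numbers was 11.43 ± 0.11 at 29.5 hpf and 11.34 ± 0.38 at 46 hpf (SD, n = 4 each). The wider spread at 46 hpf came with replicate 4, at 10.79 against 11.42 to 11.65 in the others. The arrays numbered 1 were at 11.35 and 11.94 at 46 hpf and those numbered 2 at 11.83 and 11.20. These level averages and SDs therefore depend on the numbering.

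NLRP9, an NLRP gene of the oocyte, had a mean log2 ratio of 0.24 ± 0.35 (SD, n = 4; limma adjusted p = 0.484). Its replicates were at 0.15, 0.18, -0.10 and 0.73, so 3 of 4 were above 0, as were 7 of 8 arrays. Without replicate 4 the mean was 0.077 and without replicate 3 it was 0.35, and median centring turned it to -0.048. The interval ran from 0.93-fold to 1.51-fold with the labelled numbers and from 0.92-fold to 1.52-fold with the numbers exchanged, so for this probe the numbering made little difference. NLRP9 was the brightest member probe, at 14.23 ± 0.34 at 29.5 hpf and 13.99 ± 0.16 at 46 hpf (SD, n = 4 each). In the RefSeq gene order of assembly ARS-UCD2.0 the 3 NLRP members lie on the same chromosome, with NLRP5 directly after NLRP8, and NLRP2 and NLRP9 each between other genes. NLRP8 was at -0.38 ± 0.29 and NLRP13, close to it in that order, at 0.24 ± 0.30 (SD, n = 4 each; limma adjusted p = 0.193 and 0.415), on either side of the NLRP5 value and past the threshold in neither case.

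OOEP, a KH-domain protein of the complex core, was the member with the widest labelled spread. Its replicates were at 0.61, -0.02, -0.47 and 0.10, a mean of 0.05 ± 0.44 (SD, n = 4; limma adjusted p = 0.924), and its SD was above that of 91.0% of tested probes. Replicates 1 and 3 went in opposite directions, and 4 of 8 arrays were above 0. The interval allowed changes from 0.77-fold to 1.40-fold, and from 0.79-fold to 1.36-fold with the numbers exchanged. OOEP lies beside KHDC3L in the RefSeq gene order.

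TLE6, the Groucho-family protein that joins the complex core, was at 0.04, -0.22, -0.05 and -0.14, a mean of -0.09 ± 0.11 (SD, n = 4; limma adjusted p = 0.614). Its interval was 0.83-fold to 1.06-fold, and 0.81-fold to 1.09-fold with the numbers exchanged. Its ratio moved with the dye: all 4 arrays with 29.5 hpf in Cy5 were below 0, with a mean of -0.39 ± 0.29, and 3 of the 4 with 46 hpf in Cy5 were above 0, with a mean of 0.20 ± 0.20 (SD over arrays, n = 4 each). The fitted Cy5 effect on TLE6 was -0.30, which did not pass over all tested probes (limma adjusted p = 0.405), where limma called a dye effect for 0.0887% of probes. No dye effect was called for any of the 7 members by limma, and the other 6 had effects between -0.13 and 0.15, with TLE6 alone under an unadjusted p of 0.05. The dye fit had the labelled number as a block, with the correlation taken as -0.21. It was not run with the numbers exchanged.

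PADI6 was the member with the lowest ratio. Its level was 10.25, 10.16, 9.59 and 9.88 at 29.5 hpf in labelled replicates 1 to 4, and 10.77, 10.79, 10.41 and 10.00 at 46 hpf. All 4 replicates had the lower level at 29.5 hpf, although the ranges of the groups overlapped between 10.00 and 10.25. The log2 ratios were -0.52, -0.63, -0.81 and -0.11, a mean of -0.52 ± 0.30 (SD, n = 4), which did not pass (limma adjusted p = 0.116). The 95% interval was 0.56-fold to 0.86-fold with the labelled numbers and 0.48-fold to 1.01-fold with the numbers exchanged (limma adjusted p = 0.400). Replicate 4 was the closest to 0, and the mean was -0.65 without it. PADI6 passed with probes kept only where both groups were above background on all 8 arrays (limma adjusted p = 0.0419, beside 14.3% of 6905 probes called). It also passed with the number that opens the title as a block (limma adjusted p = 0.0482, beside 9.54% called). That block parts the dye-swapped arrays of labelled replicates 2, 3 and 4, so the fit treats them as independent. In replicates 1 and 2 alone PADI6 passed as well (limma adjusted p = 0.0248, beside 6.07% called), but the correlations do not bear out these numbers. Exchanged, PADI6 was at -0.03 and -1.12 in replicates 1 and 2. In replicates 3 and 4 alone, whose numbers the correlations bear out, it was at -0.46 and did not pass (limma adjusted p = 0.519, beside 0% called). The arrays whose titles open with 140, 141 and 142 gave -0.73, -0.56 and -0.27, and 141 and 142 also differ in dye orientation.

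ZAR1, the mRNA-binding protein, had nearly equal levels in the groups, 12.87 ± 0.05 at 29.5 hpf and 12.86 ± 0.07 at 46 hpf (SD with the labelled numbers, n = 4 each). Its ratios were 0.04, -0.12, 0.12 and 0.00, a mean of 0.01 ± 0.10 (SD, n = 4; limma adjusted p = 0.962). With the labelled numbers the interval was 0.89-fold to 1.14-fold. With the numbers exchanged its SD rose to 0.38 and the interval to 0.77-fold to 1.32-fold, since the single arrays ran from -0.72 to 0.48.

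**Figure D3:**
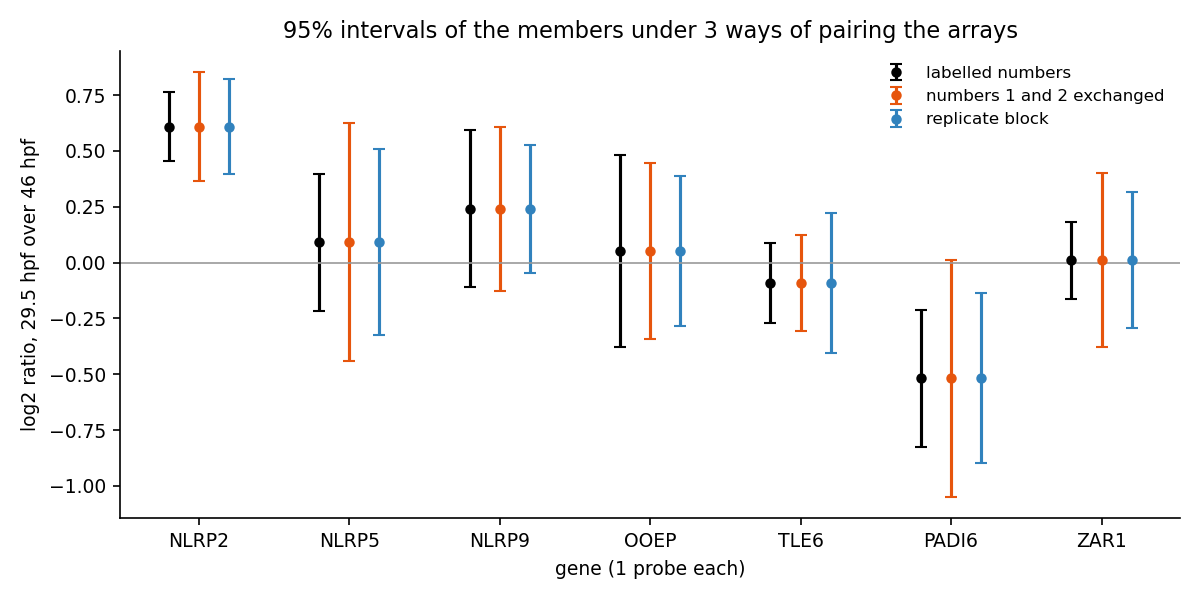
Mean log2 ratio (points) and 95% limma intervals (bars) of the 7 members with the labelled numbers, with numbers 1 and 2 exchanged, and with the labelled number as a block over 8 arrays. The means coincide, while the intervals of all members but OOEP are wider with exchanged numbers; that of NLRP2 stays above 0 in all 3 and that of PADI6 reaches 0.01 when exchanged.

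The members also show the numbering directly. For 4 members (NLRP2, NLRP5, PADI6 and ZAR1) the dye-swapped arrays numbered 1 and 2 lay closer together when exchanged, for 1 (OOEP) when kept as labelled, and for 2 (NLRP9 and TLE6) the mean distance was the same both ways. For NLRP5 the mean distance within these pairs was 1.10 as labelled and 0.065 exchanged, and for PADI6 it was 1.09 and 0.11. For OOEP it was 0.32 as labelled and 0.63 exchanged. The 3 members with the smallest SD over labelled replicates, NLRP2, ZAR1 and TLE6, had distances of 0.44 to 1.20 within the labelled pairs 1 and 2, and of 0.098 to 0.65 within pairs 3 and 4.

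The 7 probes did not move as a block. NLRP2 had the highest ratio of the members on 6 of 8 arrays and PADI6 the lowest on 6 of 8. Among the 21 pairs of members, the root mean square difference over the 8 arrays was smallest between TLE6 and ZAR1, at 0.30, and largest between NLRP2 and PADI6, at 1.20. NLRP2 differed by 0.63 from NLRP9 and by 0.70 from NLRP5, which were 0.51 apart from each other. These distances are descriptions over 8 arrays of 4 labelled replicates.

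**Figure D4:**
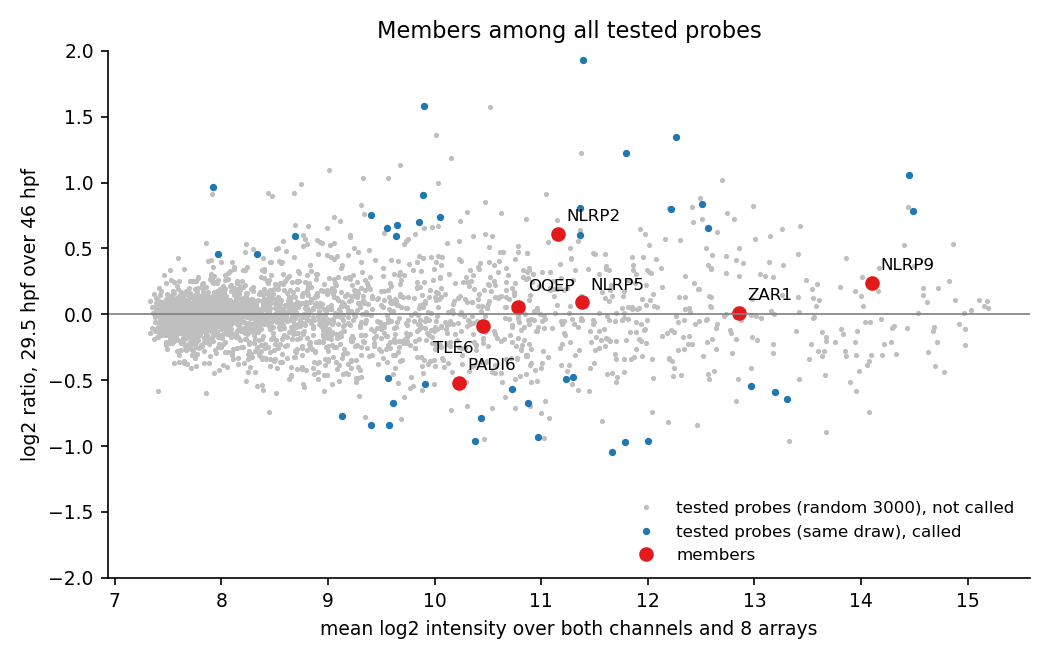
Log2 ratio against mean log2 intensity for the 7 members (red) and a random 3000 of the tested probes (grey, or blue where called by limma with the labelled numbers). The members sit at intensities between 10.23 and 14.10, and NLRP2 and PADI6 lie towards opposite edges of the cloud, at the 98.3rd and 2.09th percentile of the log2 ratio of all tested probes.

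Genes with a pattern like that of NLRP2 were sought among 11344 genes with a current symbol, by the root mean square difference of the log2 ratio over the 8 arrays. The nearest were TEX30 at 0.21, the histidine methyltransferase gene SETD3 at 0.22 and the mitochondrial RNA methyltransferase gene TRMT61B at 0.23, against a median difference of 0.71 over those genes. Their own log2 ratios were 0.57, 0.48 and 0.53. They were picked for likeness to NLRP2, so these values are a description.

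Other NLR genes gave 1 call. Of 20 relatives listed, 9 were tested, 1 was higher, 0 were lower and 8 did not pass, with a median log2 ratio of 0.08, beside 114 higher and 74 lower of 12189 genes and a median of -0.01 over all of them. The called gene was NOD1, a cytosolic sensor of bacterial peptidoglycan, with replicates at 0.60, 0.35, 0.49 and 0.53, a mean of 0.49 ± 0.11 (SD, n = 4; limma adjusted p = 0.0493) and all 8 arrays above 0. With the numbers exchanged NOD1 did not pass (limma adjusted p = 0.0984), although its SD then fell to 0.04. None of 10 tested relatives of TLE6, PADI6, ZAR1 and NPM2 passed. Their median was 0.11, and the smallest p among them was that of the corepressor gene TLE3, at 0.40 ± 0.44 (SD, n = 4; limma adjusted p = 0.325), followed by the nucleolar chaperone gene NPM1 at 0.16 and by PADI3 at 0.16. Other probes of TLE3 were at -0.091 and 0.11, so its probes disagreed in sign. ZAR1L, the paralogue of ZAR1, was at 0.00 ± 0.03 (SD, n = 4).

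None of the 21 other maternal-effect genes tested was called, nor any of 10 mRNA storage factors or 8 cofilin and actin genes. Among the maternal-effect genes, with a median of -0.02, ARID4A, a chromatin protein that binds the retinoblastoma protein, was at -0.71 ± 0.25 (SD, n = 4; limma adjusted p = 0.0534) and below 0 on all 8 arrays. UHRF1, a cofactor of maintenance DNA methylation, was at -0.40 ± 0.19 and CNOT6L, a deadenylase of maternal mRNA decay, at -0.31 ± 0.21 (SD, n = 4 each; limma adjusted p = 0.107 and 0.200). CNOT6L had other probes at 0.17 and -0.30, also not past the threshold. The mRNA storage factors that accompany ZAR1 had a median of -0.12, with IGF2BP2, an RNA-binding protein, at -0.81 ± 0.39, the oocyte cap-binding protein gene EIF4E1B at -0.32 ± 0.20 and LSM14A at -0.26 ± 0.32 (SD, n = 4 each; limma adjusted p = 0.0771, 0.171 and 0.422). The cofilin and actin genes, a pathway tied to the complex in mouse, had a median of -0.22. Of these 8 genes 1 was above 0, beside 5932 of 12189 over all genes tested. Other lists were also uneven in sign. Above 0 were 3 of the 10 storage factors and 8 of the 21 maternal-effect genes. Among NLR relatives 8 of 9 were above 0, and among relatives of the other members 9 of 10. SSH2 and SSH3, phosphatases that activate cofilin, were at -0.44 ± 0.15 and -0.32 ± 0.16, and DSTN, an actin-depolymerizing factor, at -0.30 ± 0.17 (SD, n = 4 each; limma adjusted p = 0.0722, 0.140 and 0.165). Other probes of EIF4E1B and DSTN were at -0.42 and -0.096. CFL1 and CFL2, the cofilins themselves, were at -0.08 and 0.12. With the labelled number as a block ARID4A (limma adjusted p = 0.0162), IGF2BP2 (0.0305) and SSH2 (0.0172) passed, beside 5.19% of all tested probes called in that fit. With the numbers exchanged none of these 3 passed (limma adjusted p = 0.178, 0.230 and 0.151).

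**Figure D5:**
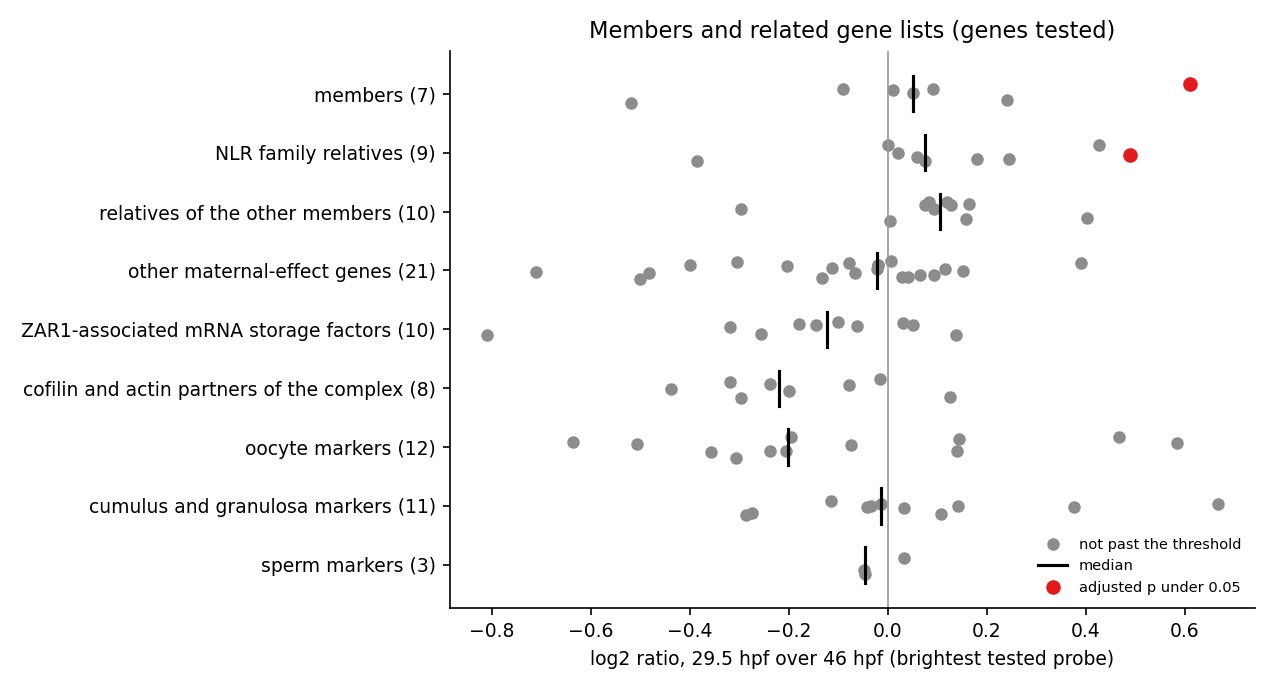
Log2 ratio of the tested genes in each list, by the brightest tested probe, with the number tested in parentheses. A vertical bar marks the list's median and red marks genes called by limma with the labelled numbers. NLRP2 and NOD1 are the called genes, and list medians run from -0.22 to 0.11.

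The cell type lists held no called gene. The 12 tested oocyte markers had a median of -0.20 and ran from -0.64 for the transcription factor gene LHX8 to 0.58 for the RNA-binding protein gene DAZL, with the helicase gene DDX4 at 0.47 and the folliculogenesis factor gene FIGLA at -0.36. Of these, LHX8 was below 0 and DDX4 above 0 on all 8 arrays (limma adjusted p = 0.117 and 0.121), and with the labelled number as a block both passed (limma adjusted p = 0.0171 and 0.0261, beside 5.19% of all tested probes called). With the numbers exchanged neither passed (limma adjusted p = 0.202 and 0.207). Other probes of LHX8 were at -0.27 and -0.65, and those of DAZL were at 0.029 and 0.19, well under the 0.58 of its brightest probe, which did not pass either (limma adjusted p = 0.277). The 11 tested cumulus and granulosa markers had a median of -0.01, and the steroidogenic gene STAR had a log2 ratio of 0.67 ± 0.38 (SD, n = 4; limma adjusted p = 0.107 as labelled and 0.0169 with the block), HAS2 at -0.29 and PTGS2 at 0.38. With the numbers exchanged STAR did not pass (limma adjusted p = 0.197). The probes of STAR and of PTGS2 disagreed: others were at 0.16 and -0.022 for STAR and at -0.17 and -0.20 for PTGS2, none past the threshold. The 3 tested sperm markers, ACRV1, PRM2 and SMCP, lay between -0.05 and 0.03.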

How the data were processed

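Per the file headers, the scanner files held intensity on a linear scale (the mean of each spot and the median of its surroundings, in each colour), without normalization. The labels' protocols give T7 amplification of the RNA and chemical attachment of the dyes. The series' value table, deposited by the authors as log2 ratios with no normalization stated, served as an alternative. Its slope on the scanner ratios had the sign of 29.5 hpf over 46 hpf in all 8 columns (1.07 to 1.48 in size), and its column medians were between -0.0151 and 0.0120.

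Background was corrected by normexp (offset 50), followed by loess within arrays with 1418 control spots at weight 0. The 28 to 186 spots per array ignored by the image software were left out, none of them a member (limma 3.58.1, R 4.3.3). Signs were turned to 29.5 hpf over 46 hpf and the dye-swapped arrays of a labelled number averaged. A probe was tested when above the mean plus 2 SD of 153 negative controls on at least 4 arrays in 1 group, with at least 3 replicate values. That limit was 807 and 723 in Cy5 on 2 arrays, against 115 to 333 on the others. The mean of 4 replicates was compared with 0 in limma (lmFit, eBayes, two-sided), and p-values were adjusted by Benjamini-Hochberg over 31559 probes, after a run on simulated data. Levels came from loess and Aquantile normalization. A listed gene was represented by its brightest tested probe. Symbols came from the platform annotation (21781 probes with 1 symbol, 22013 with none listed, 0 with several), updated through RefSeq (1644 renamed). Coordinates are left out, since no source states a build for the probes.

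The members, the 8 lists and the tests were chosen with earlier results of these data known. All members are named. From each list the called genes, otherwise up to 3 with the smallest p, are named; others were added after their values were seen (NLRP8, NLRP13, ZAR1L, CFL1, CFL2, DAZL and markers given as examples). For likeness, the 3 genes nearest to the member with the smallest p are named. The number of arrays limits the precision. The median raw signal was 152.1 to 343.8 in Cy5 and 128.5 to 195.7 in Cy3.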

Additional observations from a re-analysis of the deposited data

Results flagged for a closer look

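Among 35 groups of 4 values examined for the members, 2 held a value far from the others, and chance gives about 1 in 20. The level of NLRP2 at 29.5 hpf was 10.99 in labelled replicate 4 and between 11.61 and 11.66 in the others, a gap of 0.930 of the range. Its 46 hpf level was also lowest in that replicate, at 10.42, and the ratio there was 0.57, beside 0.58 to 0.68 in the others. The level of ZAR1 at 46 hpf was 12.97 in labelled replicate 2 and between 12.81 and 12.83 in the others, a gap of 0.853 of the range. The 2 arrays behind that ZAR1 value gave 13.46 and 12.48, and they are among those whose numbers the array correlations do not bear out.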

How the results depend on the processing

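NLRP2 stayed higher at 29.5 hpf under all 21 alternatives, with a log2 ratio of 0.30 to 0.71, and 6 of 18 that give a test kept the call. Except for the title block, those 6 pair the arrays by the labelled numbers, which the correlations do not bear out for 1 and 2. The title number as a block kept the call, although it parts the dye-swapped arrays of labelled replicates 2, 3 and 4. The labelled replicate block (0.61, limma adjusted p = 0.00693), no background correction, the strict filter, no filter and replicates 1 and 2 alone kept it too. It was lost with numbers exchanged (0.61, adjusted p = 0.122), median centring (0.30, 0.261), scaling between arrays (0.71, 0.116), the authors' deposited values (0.67, 0.148), a trended robust variance (0.61, 0.242), each dye orientation alone (0.63 and 0.58; 0.172 and 0.132), replicates 3 and 4 alone (0.62, 0.308) and each replicate left out (0.59 to 0.62; 0.0835 to 0.190), all by limma. Within title numbers 140 and 141 it was 0.52 and 0.67.

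The number of member probes called, 1 of 7 as reported, was 2 with the strict filter, the title number as a block and replicates 1 and 2 alone, where PADI6 was added, and 0 with numbers exchanged, median centring, scaling, the authors' values, the robust variance, each orientation, replicates 3 and 4 alone and each replicate left out (0 to 0); at an unadjusted p under 0.05 those settings had 1 to 3 members. Over all probes 388 were called as reported, 1638 with the replicate block, 3011 with the title number as a block, 654 without background correction, 297 without a filter, 984 with the strict filter, 1914 in replicates 1 and 2 alone, 12 with the authors' values (11 higher and 1 lower, against 212 higher and 176 lower as reported) and 4 with numbers exchanged. By limma 0 were called with median centring, scaling, the robust variance, each orientation, replicates 3 and 4 alone and each replicate left out (0 to 0), with 3508 (29.5 hpf in Cy5) to 6433 (median centring) probes at an unadjusted p under 0.05. The cause was not tested.

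Signs near 0 turned, in values that passed no test. Median centring lowered every member by 0.29 to 0.32, with a median shift of -0.11 over all tested probes and of -0.31 over the brightest 20%, giving NLRP5 -0.22, NLRP9 -0.048, OOEP -0.26 and ZAR1 -0.29. Scaling gave OOEP -0.0018 and ZAR1 -0.033. Leaving out 1 replicate gave NLRP5 -0.054 to 0.16, OOEP -0.13 to 0.23 and ZAR1 -0.027 to 0.054. With 29.5 hpf in Cy5 OOEP was -0.074 and ZAR1 -0.11; with 46 hpf in Cy5 NLRP5 was -0.055 and TLE6 0.20. Replicates 1 and 2 alone gave NLRP5 -0.087 and ZAR1 -0.040, and replicates 3 and 4 alone OOEP -0.19. Title number 140 gave NLRP5 -0.25 and ZAR1 -0.21, 141 gave OOEP -0.28 and ZAR1 -0.038, and 142 gave TLE6 0.18. Titles 141 and 142 hold 1 dye orientation each. Representing a gene by the median of its probes turned no list's median. Labelled numbers 1 and 2 failed the pairing check (deviations correlated at -0.28 and -0.19, against 0.29 and 0.51 for 3 and 4). The exchange was chosen with earlier results known, and replicates 1 and 2 alone or 3 and 4 alone after seeing the data.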
